A study of Mus musculus with 15 samples.

Results

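Doxorubicin was compared with no drug in B16.F10 cells held in 1% oxygen. B16.F10 is a pigmented mouse melanoma line of C57BL/6 origin that was selected for growth in the lung, so all values describe 1 cell line. The comparison uses 6 of the 15 libraries of the study: 3 libraries labelled Doxorubicin, here called Dox, and 3 untreated libraries, here called Control. They were chosen by their treatment label and not by any measured value. Both groups are recorded as wild type and both were kept in 1% oxygen, so nothing here compares low with normal oxygen. The drug was doxorubicin hydrochloride at 0.25 µM for 24 h. No siRNA is named for either group. The protocol shared by all 15 libraries describes an siRNA transfection before the drug, and whether Dox and Control cells went through any part of it is not stated. Of the 13172 genes listed for any group, the 13080 listed for both Dox and Control were tested. The other 92 were listed for Control and not for Dox, and none of them exceeded 28 reads in a Control library.

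Doxorubicin is an anthracycline that slides between DNA base pairs and traps type II topoisomerases on the strands they have just cut. The resulting breaks are sensed by the kinases ATM and ATR, which act on cell cycle checkpoints, repair and the transcription factor p53. Anthracyclines also evict histones from chromatin, disturb RNA synthesis, are reduced by cellular enzymes in reactions that yield reactive oxygen, and leave cells through ABC transporters.

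Library totals were 25898384 to 26434083 reads in Control and 24840652 to 25392403 in Dox. The level of a gene is its CPM, the standard depth-scaled read count, with library totals adjusted by TMM factors. A value after ± is the SD over 3 libraries when it follows a CPM and the SE when it follows a log2 fold change, which is Dox minus Control throughout. Of a pair of levels joined by "to", the first is the Control mean and the second the Dox mean. A bare value in brackets after a gene is its log2 fold change. The labels call the libraries biological replicates without naming separate cultures. The p-values therefore rest on how much these libraries vary, and that variation may be technical only. The first principal component held 95.3% of the variance and separated Dox from Control. These are bulk libraries scaled to a common total: fewer cells of a kind and less RNA per cell cannot be told apart, and a change in total RNA per cell would not be seen. The pigment genes Tyrp1, Dct and Pmel were abundant in both groups, with Tyrp1, the gene of a melanosomal enzyme, going from 4899.5 ± 135 to 11808 ± 766 CPM. Not all melanocyte markers rose: Sox10, Pax3 and Tyr fell, and Mitf did not pass. Of 7 tested lineage factor genes 1 rose and 4 fell. Of 19 markers of leukocytes, endothelium, epithelium, fibroblasts and erythroid cells, 17 had no value in both groups and were not tested. The 2 tested ones are fibroblast markers, and Col1a1 (5.09 ± 0.11 to 40.3 ± 10.9 CPM) and Pdgfra (0.892 ± 0.13 to 3.28 ± 0.26 CPM) both rose. Their part in the other results was not tested.

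More than 4 in 5 genes changed, in nearly equal numbers each way. With edgeR's quasi-likelihood test and an adjusted p threshold of 0.05, 5537 genes rose (42.3% of those tested) and 5400 fell (41.3%), 83.6% in all. At least 2-fold changes were called for 3460 genes that rose (26.5%) and 3376 that fell (25.8%). Very large changes were more often increases: 250 genes rose at least 16-fold and 80 fell as far, and at 32-fold the counts were 72 and 21. The median log2 fold change over all genes was 0.04. With upper-quartile factors in place of TMM that median moved up by 0.23, so the direction of changes of that size depends on the scaling. With so many genes called, a count of called genes in a list says little by itself, and each list below is given with its median as well. In 42.8% of genes every Dox library lay above every Control library, and in 41.6% below. A lack of overlap therefore also says little by itself.

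**Figure D1:**
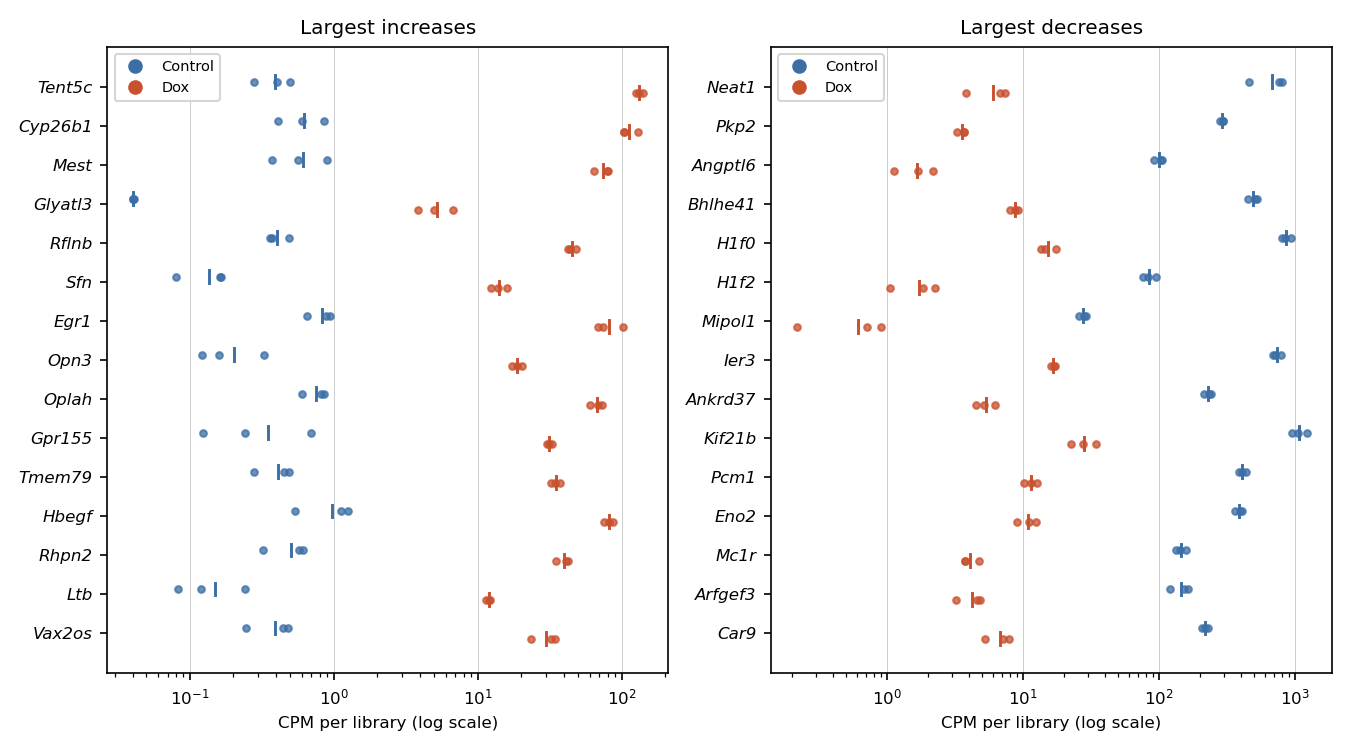
CPM in each library (log scale) for the 15 genes with the largest increases (left) and the 15 with the largest decreases (right), Control in blue and Dox in orange, with a short line at each group's mean. No gene's Dox libraries overlap its Control libraries, which is part of the rule that chose them, and Tent5c rises from below 1 CPM in every Control library to over 100 CPM in every Dox library.

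The largest increase was that of Tent5c, which encodes a noncanonical poly(A) polymerase. Tent5c (gene ID 74645, chromosome 3, 100468057 to 100489192) stood at 0.406, 0.493 and 0.281 CPM in Control and 126, 140.0 and 133 CPM in Dox. All 3 Dox libraries lay over 100 CPM and every Control library below 1 CPM, with a log2 fold change of 8.38 ± 0.14 and edgeR adjusted p = 8.49e-15. Next came Cyp26b1, the gene of a retinoic acid hydroxylase, at 0.853, 0.411 and 0.602 CPM in Control and 103, 130.0 and 103 CPM in Dox. Mest, an imprinted gene normally expressed from the paternal copy, stood at 0.893, 0.37 and 0.562 CPM in Control and 64.3, 80.1 and 79.4 CPM in Dox. Both genes were close to silent in Control and well expressed in Dox. The log2 fold changes were 7.48 ± 0.18 and 6.93 ± 0.19. Glyatl3, the gene of a glycine acyltransferase-like protein, had 1 read in each Control library and 179, 107 and 132 reads in the Dox libraries. Over the groups that is 3 reads against 418, a ratio of 145 per read sequenced with a 95% exact interval of 49.2 to 704 that covers counting error only.

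The other 11 large increases fell between log2 fold changes of 6.24 and 6.77. Sfn, the gene of the 14-3-3 sigma protein that holds cells before mitosis and a known p53 target in epithelial cells, stood at 0.162, 0.164 and 0.0803 CPM in Control and 12.3, 16.1 and 13.8 CPM in Dox. Every Dox library was above 12 CPM and every Control library below 0.2 CPM. Egr1, an immediate early transcription factor gene, stood at 0.65, 0.945 and 0.883 CPM in Control and 68.4, 103 and 74.2 CPM in Dox. Hbegf, which encodes an EGF receptor ligand, went from 0.972 ± 0.39 to 81.2 ± 5.36 CPM, and Ltb, which encodes the lymphotoxin beta chain, from 0.149 ± 0.084 to 11.9 ± 0.41 CPM. Also in this set were the oxoprolinase gene Oplah, the opsin gene Opn3, the filamin regulator gene Rflnb, the lysosomal cholesterol-sensing gene Gpr155, and Tmem79, Rhpn2 and the noncoding Vax2os.

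At the other end was Neat1, the long noncoding RNA that builds nuclear paraspeckles. Neat1 (gene ID 66961, chromosome 19, 5824708 to 5845480) stood at 759.9, 459 and 798 CPM in Control and 7.36, 6.81 and 3.79 CPM in Dox. Control replicate 2 was lower than the other Control libraries, and all Dox libraries were below 10 CPM. The log2 fold change was −6.81 ± 0.37 (edgeR adjusted p = 7.84e-06). The desmosome gene Pkp2 was far steadier, with 296, 279 and 294 CPM in Control and 3.72, 3.69 and 3.30 CPM in Dox and a change of −6.34 ± 0.09. Kif21b, a kinesin gene, stood at 939, 1047 and 1209 CPM in Control and 27.7, 34.4 and 22.7 CPM in Dox. Pcm1, which encodes a scaffold of the centriolar satellites, went from 409 ± 24.2 to 11.4 ± 1.29 CPM. Ier3, a stress-induced survival gene, went from 729 ± 51.9 to 16.7 ± 0.48 CPM, and the cilium-associated gene Mipol1 from 27.6 ± 1.44 to 0.616 ± 0.36 CPM. Angptl6, Arfgef3, Mc1r, Bhlhe41, H1f0, H1f2, Ankrd37, Eno2 and Car9 completed the 15, with log2 fold changes between −5.90 and −5.00.

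The enzymes that doxorubicin acts on fell. Top2a, the form of topoisomerase II made in dividing cells, stood at 616, 634 and 659.5 CPM in Control and 59.2, 59.4 and 50.9 CPM in Dox. All Dox libraries were far below all Control libraries, with a log2 fold change of −3.49 ± 0.08 (edgeR adjusted p = 4.65e-14). Top2b, the form that resting cells also make, stood at 144, 175 and 164 CPM in Control and 50.1, 49.9 and 44.8 CPM in Dox and changed by −1.74 ± 0.09. Top1, the enzyme that cuts 1 strand, went from 189 ± 9.56 to 52.8 ± 0.87 CPM (−1.84). Both tyrosyl-DNA phosphodiesterase genes, Tdp1 (−0.91) and Tdp2 (−0.72), whose products clear topoisomerase remnants from DNA ends, fell as well. Top3a, which resolves linked DNA in recombination and in mitochondria, went the other way, with 4.67, 5.01 and 5.54 CPM in Control and 132, 113 and 112 CPM in Dox. It was the only one of the 8 genes in this list that rose, by 4.55 ± 0.11, and Top3b fell (−0.69). With upper-quartile factors Top1mt, which did not pass here, rose as well, so that 2 rose. The median of the 8 was −0.81, beside 0.04 for all genes.

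Genes of drug export moved both ways. Of 9 tested transporters 3 rose and 3 fell, with a median of 0.11, and with upper-quartile factors 5 rose. Abcb1b, a P-glycoprotein gene known from anthracycline resistance, did not pass (−0.25, 5.33 ± 0.2 to 4.49 ± 0.37 CPM). Abcc1, encoding the multidrug resistance protein of that name, fell (267 ± 7.59 to 93.4 ± 6.2 CPM, −1.52 ± 0.07), as did Abcg2 (−0.73) and Abcc5 (−0.98), while Abcc4 (1.52), Abca2 (1.48) and Abcc10 (0.99) rose. Abcb1a, Abcc2, Abcc3 and Abcc6 were not tested.

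Among 31 enzymes that reduce anthracyclines or handle oxidants, 16 rose and 13 fell, with a median of 0.33. Akr1b1, an aldose reductase gene, had the largest increase, with 90.2, 86.6 and 82.04 CPM in Control and 1123, 1173 and 1302 CPM in Dox. No library overlapped between groups (3.80 ± 0.08), as was so for most genes tested. The carbonyl reductase genes Cbr3 (2.02) and Cbr1 (0.37), whose products turn doxorubicin into its alcohol, rose, and so did Nqo1 (1.37), Sod2 (1.19) and the peroxiredoxin genes Prdx1 (632 ± 15.4 to 2464 ± 64.1 CPM) and Prdx2 (1.26). The largest decreases were those of inducible stress genes. The metallothionein gene Mt1 stood at 791, 719 and 758 CPM in Control and 25.00, 28.3 and 27.7 CPM in Dox, and Mt2 changed by −3.48 ± 0.09. Hmox1, which encodes heme oxygenase and responds to NRF2, stood at 704, 748 and 695 CPM in Control and 30.5, 31.7 and 32.5 CPM in Dox and changed by −4.50 ± 0.07. Nfe2l2, the gene of NRF2 itself, fell by less (−0.73), with Txnrd1 (−0.89) and the cystine transporter gene Slc7a11 (−2.56).

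**Figure D2:**
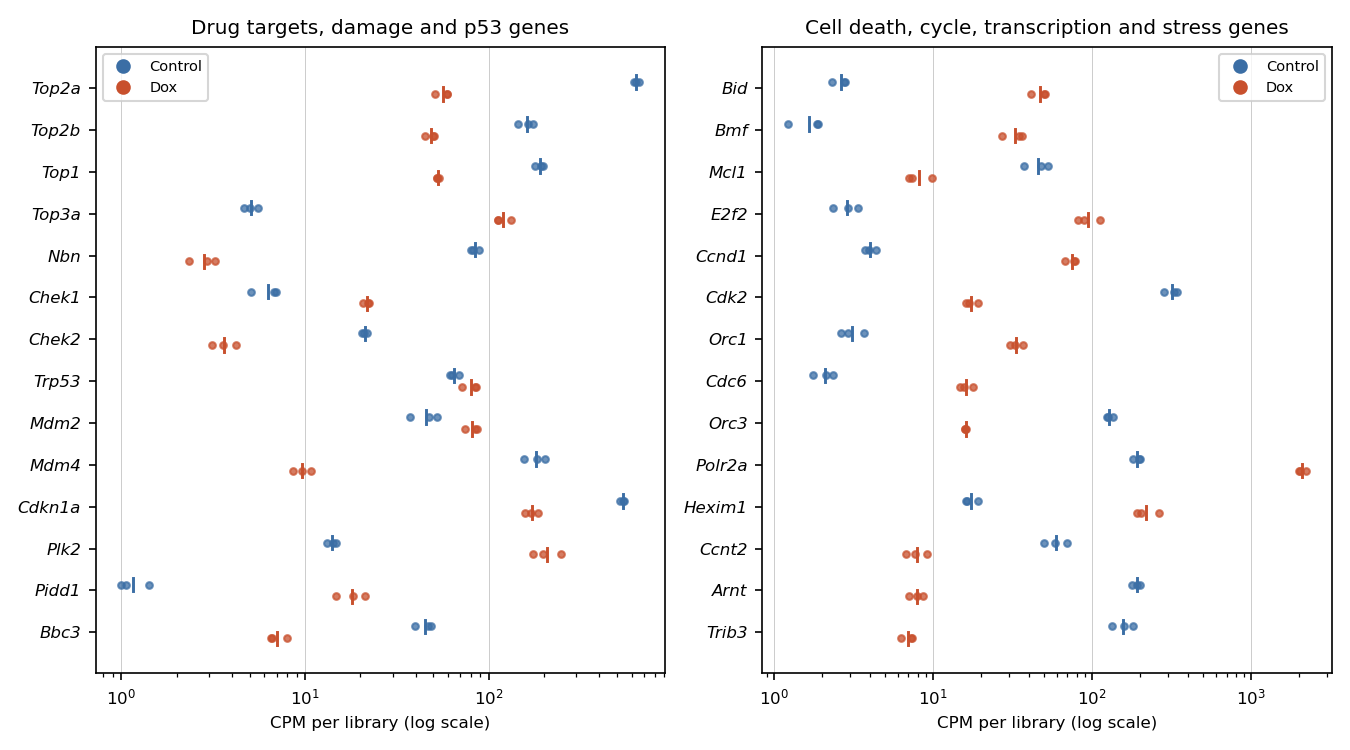
CPM in each library (log scale) for 28 genes of the damage response, cell death, cell cycle, transcription and stress lists, Control in blue and Dox in orange, with a short line at each group's mean. Top2a, Nbn, Mdm4, Cdk2, Arnt and Trib3 lie lower in all 3 Dox libraries, and Top3a, Plk2, Bid, E2f2, Ccnd1 and Polr2a lie higher in all 3.

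Of the 23 DNA damage signalling genes, 13 rose and 7 fell, with a median of 0.45. The largest change was a decrease: Nbn, whose product joins MRE11 and RAD50 in the complex that detects double-strand breaks, stood at 88.95, 82.5 and 79.5 CPM in Control and 2.35, 3.22 and 2.92 CPM in Dox. Its log2 fold change was −4.88 ± 0.12 (edgeR adjusted p = 1.39e-13). The partners behaved differently, since Rad50 rose slightly (0.45) and Mre11a did not pass (−0.06). The kinase genes also divided. Chek2 fell (21.1 ± 0.63 to 3.64 ± 0.55 CPM, −2.53 ± 0.14) and Chek1 rose (6.28 ± 1.01 to 21.6 ± 0.8 CPM, 1.78 ± 0.13). Atr fell (−1.54) and Atm rose (0.42). The ubiquitin ligase gene Rnf168 fell (−2.47), while Rad9a (2.63), Rad1 (1.48) and Hus1 (1.30), which together form the checkpoint clamp, all rose. Atrip, whose product is the partner of ATR, did not pass at 0.22, and without Dox replicate 3 it was lower at −1.32 (edgeR adjusted p = 0.000874), so 1 library sets its direction.

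In end joining 5 of 16 genes rose and 6 fell, with a median of 0.10. Parp1, whose product marks strand breaks with poly(ADP-ribose), rose from 110.3 ± 3.54 to 362 ± 10.9 CPM. Lig4 rose (1.14), Prkdc, the catalytic subunit gene of DNA-PK, fell (−0.83), and Aptx, which repairs failed ligations, fell most (−1.83). In homologous recombination and the Fanconi pathway 9 of 27 rose and 12 fell, with a median of −0.01 that became 0.21 with upper-quartile factors. Brca2 (−0.01) did not pass, Brca1 (−0.93) and Fancd2 (−1.20) fell, and Rad51b fell most (10.9 ± 0.75 to 1.56 ± 0.41 CPM). On the other side Fancb (0.475 ± 0.24 to 5.36 ± 0.53 CPM), the nuclease gene Exo1 (2.78) and Palb2 (2.46) rose.

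Genes of the p53 network rose more often than they fell, 19 against 10 of 30 tested, with a median of 0.83, and the best known targets were split. Trp53 rose by 0.31 (64.6 ± 4.12 to 80.2 ± 7.2 CPM). Mdm2, whose product degrades p53 and which p53 induces, stood at 37.1, 47.2 and 52.5 CPM in Control and 86.1, 83.96 and 74.04 CPM in Dox and rose by 0.84 ± 0.11. Mdm4, which encodes the other p53 inhibitor, stood at 156, 183 and 202 CPM in Control and 10.8, 8.58 and 9.59 CPM in Dox and changed by −4.22 ± 0.12. The 2 inhibitor genes therefore moved in opposite directions, each with no overlap between groups, as was so for most genes tested.

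The arrest and repair targets rose in 11 of 17 cases and fell in 5. Plk2, a kinase gene, stood at 13.2, 14.2 and 14.8 CPM in Control and 175, 248 and 197 CPM in Dox (3.88 ± 0.12). Plk3 (3.09), Tigar (2.74), Ppm1d (2.42), which encodes the phosphatase that ends the damage signal, and Btg2 (2.13) rose too. Cdkn1a, the p21 gene that blocks cyclin-dependent kinases, was lower in every Dox library, with 535, 547 and 521 CPM in Control and 157, 186 and 170.3 CPM in Dox. Gadd45a fell further (111 ± 14.5 to 19.2 ± 1.36 CPM, −2.53 ± 0.10). Of 8 tested death targets 5 rose and 3 fell. Pidd1, which activates caspase-2, stood at 1.42, 1.07 and 1.00 CPM in Control and 18.2, 21.1 and 14.8 CPM in Dox (3.95 ± 0.20), and the nuclease gene Aen changed by 2.67 ± 0.11. Bbc3, the gene of the killer protein PUMA, fell (45.1 ± 4.62 to 7.03 ± 0.81 CPM, −2.68 ± 0.12), as did Apaf1 (−1.86) and Bax (−0.61). Rprm, Pmaip1, Fas, Eda2r and Perp were not tested.

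In the BCL2 family 5 of 11 tested genes rose and 5 fell, with a median of −0.0032 that became 0.23 with upper-quartile factors. Of the 5 tested BH3-only genes, whose products start cell death, 4 rose. Bid stood at 2.80, 2.75 and 2.33 CPM in Control and 41.5, 49.9 and 50.9 CPM in Dox and rose by 4.17 ± 0.14. Bmf stood at 1.87, 1.23 and 1.89 CPM in Control and 27.2, 36.1 and 34.7 CPM in Dox and rose by 4.29 ± 0.18. Both were nearly absent from Control. Bad (1.85) and Bcl2l11 (1.84), which encodes BIM, rose as well, and Bbc3 was the exception. The pore-forming effector Bak1 fell (82.2 ± 3.32 to 32.9 ± 1.79 CPM), with Bax. Among the survival genes Mcl1 had the largest change, with 37.3, 47.5 and 52.5 CPM in Control and 7.36, 9.88 and 7.12 CPM in Dox (−2.49 ± 0.15). Bcl2l2 fell (−1.77), Bcl2 rose (1.01), and Bcl2l1, which encodes BCL-XL, had the same mean in both groups (23.01 ± 1.75 to 22.95 ± 0.2 CPM). Of 22 caspase, inhibitor and death receptor genes 11 rose and 8 fell, with a median of 0.17. Casp6 (−2.09), Casp2 (−1.09) and the inhibitor gene Birc6 (−1.87) fell. Casp8 did not pass (0.08).

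Most replication genes rose, and mitotic genes were divided. Of 52 replication genes 38 rose and 9 fell, with a median of 1.26. Orc1, the cell cycle-controlled subunit of the origin recognition complex, stood at 2.92, 2.63 and 3.69 CPM in Control and 30.5, 36.7 and 32.8 CPM in Dox, and the loading factor gene Cdc6 went from 2.09 ± 0.3 to 16.1 ± 1.58 CPM. The origin complex genes were divided. Orc3 stood at 136, 126 and 123 CPM in Control and between 15.99 and 16.08 CPM in the 3 Dox libraries, and changed by −3.00 ± 0.08. Orc2 (−0.53), Orc4 (−1.15) and Orc5 (−2.19) also fell while Orc6 (1.03) rose. All 6 genes of the replicative helicase, Mcm2 to Mcm7, rose, from 0.83 for Mcm2 to 2.16 for Mcm4. Geminin (Gmnn), the inhibitor of origin licensing, fell (13.8 ± 0.76 to 3.07 ± 0.56 CPM) and its target Cdt1 rose (1.26).

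At the fork, Fen1 (5.48 ± 0.073 to 56.3 ± 2.3 CPM), Rnaseh2a (3.00), Lig1 (2.51) and Pcna (0.62) rose, and the clamp loader gene Rfc1 fell (106 ± 3.71 to 16.3 ± 1.36 CPM) with Pole2 (−1.53). The subunits of ribonucleotide reductase, which makes deoxynucleotides, moved apart. Rrm2 stood at 43.3, 46.5 and 49.4 CPM in Control and 197, 237 and 229.6 CPM in Dox and rose by 2.25 ± 0.08. Rrm1 stood at 156, 156 and 148 CPM in Control and 44.6, 40.4 and 36.7 CPM in Dox and changed by −1.92 ± 0.08. Neither gene's groups overlapped, as was so for most genes tested. Rrm2b, the p53-controlled small subunit gene, rose (1.35).

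Among 46 mitotic genes 19 rose and 25 fell, with a median of −0.33. Aurka (58.2 ± 3.59 to 188 ± 13.9 CPM, 1.69 ± 0.08) and Espl1 (1.96), the separase gene, rose. Aurkb (81.6 ± 7.07 to 18.9 ± 0.54 CPM, −2.11 ± 0.09), Mki67 (417 ± 7.98 to 98.4 ± 0.87 CPM), the cytokinesis gene Anln (−2.52) and the kinetochore gene Nuf2 (−2.74) fell. Ccna2 (−1.55) and Cdk1 (−0.87) fell, Ccnb1 rose slightly (0.29), and Plk1 did not pass (0.19).

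The G1 regulators held some of the largest contrasts, though their median was −0.26 and became −0.03 with upper-quartile factors. E2f2, an activator of S phase genes, stood at 3.37, 2.34 and 2.93 CPM in Control and 89.3, 112 and 81.1 CPM in Dox (5.03 ± 0.16). Ccnd1, the cyclin D1 gene, stood at 4.38, 3.98 and 3.73 CPM in Control and 77.2, 78.5 and 67.3 CPM in Dox (4.20 ± 0.11). Ccne2 (3.23 ± 0.69 to 36.1 ± 4.65 CPM), Cdk6 (2.46) and E2f8 (2.55) rose. Cdk2, the kinase that cyclin E drives, went the other way, with 285, 327 and 339.6 CPM in Control and 19.3, 16.9 and 16.1 CPM in Dox (−4.18 ± 0.09, edgeR adjusted p = 6.05e-14). Ccnd3 (−2.36), the inhibitor gene Cdkn1b (551 ± 25.1 to 76.2 ± 3.16 CPM), Rb1 (169.7 ± 6.1 to 34.8 ± 2.88 CPM) and E2f5 (−2.78) fell. The cyclin D genes thus moved in opposite directions.

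Many replication promoters carry E2F sites, and the letters were looked for in RefSeq promoter sequences, available for 9746 of the 13080 genes (GRCm38.p6, 250 bases before to 50 after the start). The E2F letters searched were TTTCCCGC, TTTCGCGC, TTTGGCGC and TTTGCCGC on either strand. They were in 13 of 43 replication promoters (30.2%) and 4.46% of all promoters. Of the 13 genes with them 9 rose and 2 fell, with a median of 1.26, and of the 30 without them 22 rose and 6 fell, with a median of 1.13. The shares among genes that rose or fell at least 2-fold were 5.11% and 4.64%. Below are the 60 bases around the match in 2 genes that rose and in 1 that fell, each upstream of the start, on the gene's strand, with the match in capitals. The match of Orc3, which fell, and that of Cdc6, which rose, are the same letters on opposite strands (TTTCCCGC), and the match of Orc1 is TTTCGCGC on the other strand.
Orc1 (GRCm38.p6 chr4:108579394-108579453, plus strand): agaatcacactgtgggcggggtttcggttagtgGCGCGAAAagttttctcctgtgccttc
Cdc6 (GRCm38.p6 chr11:98907987-98908046, plus strand): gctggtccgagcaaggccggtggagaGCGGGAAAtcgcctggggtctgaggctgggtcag
Orc3 (GRCm38.p6 chr4:34614950-34615009, minus strand): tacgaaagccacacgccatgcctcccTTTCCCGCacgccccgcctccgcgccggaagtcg

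Of 12 tested linker and replacement histone genes 4 rose and 6 fell, with a median of −0.35. H1f0, the linker histone gene of slowly dividing cells, stood at 797, 927 and 836 CPM in Control and 17.5, 13.5 and 14.6 CPM in Dox, a change of −5.81 ± 0.10. H1f2 stood at 95.2, 83.5 and 76.1 CPM in Control and 1.06, 2.24 and 1.86 CPM in Dox (−5.62 ± 0.18). H1f3 (−2.71) and H1f4 (−1.75), both at low levels, also fell, and H1f10 did not pass. H1f2, H1f3 and H1f4 belong to the replication-coupled histones, whose messages mostly lack a poly(A) tail, and the libraries were made with an mRNA kit. H1f0 has a tail. The H3.3 genes moved apart, H3f3a up (0.81) and H3f3b down (−0.80), and H2ax, which marks broken chromatin when phosphorylated, rose by 0.63. H3f3a and H3f3b have near-identical copies elsewhere in the genome, so the split of their reads is uncertain.

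Of 18 genes that control RNA polymerase II elongation 11 rose and 6 fell, with a median of 0.60, and 4 fell with upper-quartile factors. Polr2a, the gene of the largest polymerase subunit, stood at 197, 199.8 and 182 CPM in Control and 2005, 2213 and 2023 CPM in Dox. All Dox libraries were far above all Control libraries (3.43 ± 0.07, edgeR adjusted p = 2.93e-14; gene ID 20020, chromosome 11, 69733997 to 69758633). Hexim1 and Hexim2, whose products hold the elongation kinase P-TEFb inactive, rose together, Hexim1 with 16.2, 19.3 and 16.5 CPM in Control and 203, 262 and 191 CPM in Dox and Hexim2 from 1.14 ± 0.29 to 11.6 ± 1.91 CPM. The kinase gene itself, Cdk9, rose by 0.79, and its cyclin genes Ccnt1 (−1.02) and Ccnt2 (59.4 ± 10.01 to 7.92 ± 1.23 CPM) fell.

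Of 22 genes of the nucleolus and RNA polymerase I, 13 rose and 8 fell, with a median of 1.37. Rrp9, a component of the U3 processing complex, stood at 2.88, 2.34 and 2.17 CPM in Control and 67.9, 75.7 and 64.8 CPM in Dox (4.81 ± 0.13). Dkc1 (5.95 ± 1.05 to 108 ± 5.54 CPM), Bop1 (10.2 ± 0.84 to 175 ± 5.99 CPM), Nolc1 (3.78), Nop2 (3.40) and Ubtf (25.4 ± 2.38 to 211 ± 25.3 CPM), which encodes the polymerase I activator UBF, all rose. Taf1b, a subunit gene of the promoter selectivity factor, stood at 44.2, 38.2 and 40.1 CPM in Control and 1.06, 1.48 and 1.36 CPM in Dox and changed by −4.96 ± 0.15. Another subunit of that factor, Taf1c, rose (2.39). The initiation factor gene Rrn3 (−1.22), Polr1c (−1.91) and Npm1 (2284 ± 26.6 to 1015 ± 14.9 CPM) fell.

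Genes of the hypoxia response were lower under the drug even though oxygen was the same. HIF is a pair of an oxygen-labile alpha subunit and the constant subunit encoded by Arnt, and it binds the letters ACGTG or GCGTG. Of the 9 tested subunits and sensors 7 fell, with a median of −2.24, and 6 fell with upper-quartile factors. Arnt had the largest change, with 191, 201 and 178 CPM in Control and 8.72, 7.89 and 7.12 CPM in Dox. Vhl, which targets the alpha subunits for destruction, went from 137 ± 6.34 to 25.5 ± 2.82 CPM, and Hif1a from 201 ± 13.5 to 123 ± 6.84 CPM (−0.71 ± 0.07). Of 28 HIF targets outside glycolysis 26 fell, with a median of −2.08, and Egln3 (2.84 ± 0.67 to 5.98 ± 0.17 CPM) and Narf (0.35) rose. One of the 26, Ndrg1 (−0.20), turned positive with upper-quartile factors (0.0238), which leave 24 lower. Ankrd37 stood at 233, 212 and 239.8 CPM in Control and 4.51, 6.23 and 5.19 CPM in Dox. Car9, the gene of a carbonic anhydrase that acidifies the surroundings of hypoxic cells, stood at 216, 208 and 229 CPM in Control and 7.89, 5.29 and 7.16 CPM in Dox. Ddit4, an mTORC1 inhibitor gene, went from 714 ± 38.00 to 38.1 ± 6.74 CPM, the demethylase gene Kdm4c from 85.2 ± 2.07 to 5.54 ± 0.67 CPM, and Vegfa from 663 ± 47.2 to 101 ± 6.72 CPM. These 5 genes were lower in every Dox library than in any Control library, as were 41.6% of all genes tested.

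Of 27 glycolytic genes 21 fell, with a median of −1.83. Gapdh took 2.21% of reads in Control and 0.621% in Dox. Gapdh, Eno1 and Pkm have many near-identical pseudogenes, so their levels are uncertain. The isoform genes of enolase differed: Eno2 stood at 391, 363 and 403 CPM in Control and 11.1, 12.4 and 9.09 CPM in Dox, a change of −5.15 ± 0.10, whereas Eno1 changed by −0.70 ± 0.07. The glucose transporters differed in direction, since Slc2a1 fell (442 ± 38.1 to 41.2 ± 5.53 CPM) and Slc2a3, the neuronal high-affinity form, rose, with 3.69, 5.22 and 3.41 CPM in Control and 69.3, 67.9 and 71.2 CPM in Dox. The lactate transporters differed as well, with Slc16a3 down (−2.78) and Slc16a1 up (1.42). Pkm (−0.20) turned slightly positive with upper-quartile factors (0.0235), and its call was lost without Control replicate 1 or Dox replicate 1 (edgeR adjusted p up to 0.0701). The pentose phosphate pathway, which branches off glycolysis to make ribose and NADPH, had 8 of 10 genes higher and none lower, with a median of 0.81. Rpia (5.07 ± 0.97 to 22.2 ± 1.3 CPM) and Prps1 (1.46) rose most, and G6pdx did not pass (0.05).

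The HIF core letters ACGTG were in 26.4% of all promoters on either strand, in 24.0% of those of genes that rose at least 2-fold and in 29.6% of those of genes that fell as far. In the HIF targets outside glycolysis the share was 61.9%. The 13 with the letters had a median of −3.11 and the 8 without them a median of −1.32. Among glycolytic genes the medians were −2.05 for the 13 with and −1.25 for the 13 without. A match is a description of the sequence, not a binding site. The other form, GCGTG, was not searched, so a promoter counted as without the letters may still hold it. The promoters below are those of 4 genes that fell (Car9, Ankrd37, Bnip3 and Slc2a1) and of Egln3, which rose, shown because all 5 hold the letters and 1 did not follow the others. In Bnip3 the match reads CACGTG, which is ACGTG on both strands.
Car9 (GRCm38.p6 chr4:43506966-43507025, plus strand): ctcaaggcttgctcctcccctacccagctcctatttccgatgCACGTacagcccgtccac
Ankrd37 (GRCm38.p6 chr8:45999851-45999910, minus strand): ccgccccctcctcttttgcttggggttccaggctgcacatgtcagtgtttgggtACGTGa
Bnip3 (GRCm38.p6 chr7:138909582-138909641, minus strand): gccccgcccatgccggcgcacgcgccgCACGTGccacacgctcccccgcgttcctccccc
Slc2a1 (GRCm38.p6 chr4:119108681-119108740, plus strand): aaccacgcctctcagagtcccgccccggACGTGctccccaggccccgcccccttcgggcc
Egln3 (GRCm38.p6 chr12:54204065-54204124, minus strand): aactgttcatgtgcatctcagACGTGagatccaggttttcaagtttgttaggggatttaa

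Most genes of the integrated stress response fell. In this response, kinases that sense stress phosphorylate eIF2α, and ATF4 then induces amino acid and redox genes. Of 23 tested genes 16 fell and 6 rose, with a median of −0.93. Atf4 stood at 758, 700.3 and 686 CPM in Control and 60.6, 69.8 and 62.3 CPM in Dox and changed by −3.48 ± 0.08. Its targets Trib3, with 133, 179.6 and 158 CPM in Control and 7.28, 6.30 and 7.43 CPM in Dox, and Ddit3, with 461, 469 and 469.6 CPM in Control and 32.4, 51.99 and 36.3 CPM in Dox, followed in the same direction, as did Cebpg (125 ± 13.6 to 8.41 ± 0.8 CPM), Cebpb (−3.97) and Asns (351 ± 17.5 to 65.1 ± 2.5 CPM). The serine synthesis genes Phgdh (200.4 ± 5.91 to 595 ± 10.01 CPM) and Psat1 (0.29), which ATF4 can also induce, were among the exceptions and rose. Shmt2 (1.15) rose as well, and Mthfd2, also in the list, fell. Of the sensor kinase genes Eif2ak3 (0.72) and Eif2ak1 (0.46) rose, and Eif2ak2 (−0.75) and Eif2ak4 (−1.12) fell.

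The letters TGATGNAA, the core of the element bound by ATF4 with C/EBP proteins, were in 5 of the 21 stress response promoters (23.8%) and in 2.26% of all promoters. All 5 genes, Trib3, Slc7a11, Asns, Nupr1 and Chac1, fell, with a median of −2.56. The 16 without the letters had a median of −0.61, with 10 lower and 5 higher. Outside the list the letters did not go with direction. They were in 2.67% of the promoters of all genes that rose at least 2-fold and in 2.64% of those that fell as far. The match of Trib3 lies after the start. The other 4 are shown because they carry the contrast, and Slc7a11 has the letters on both strands.
Asns (GRCm38.p6 chr6:7693210-7693269, minus strand): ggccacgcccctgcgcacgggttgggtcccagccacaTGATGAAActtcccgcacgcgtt
Chac1 (GRCm38.p6 chr2:119351023-119351082, plus strand): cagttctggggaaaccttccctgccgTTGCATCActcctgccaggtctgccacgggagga
Nupr1 (GRCm38.p6 chr7:126625547-126625606, minus strand): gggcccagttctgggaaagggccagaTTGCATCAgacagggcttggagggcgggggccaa
Slc7a11 (GRCm38.p6 chr3:50443627-50443686, minus strand): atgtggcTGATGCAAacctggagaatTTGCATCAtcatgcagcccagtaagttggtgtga

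Endoplasmic reticulum chaperones were divided, 14 higher and 9 lower of 24, with a median of 0.44. Ero1a, the oxidase gene and a HIF target, stood at 3748, 5216 and 4960.3 CPM in Control and 187, 187 and 191 CPM in Dox, a change of −4.62 ± 0.11. Hspa5, the gene of the chaperone BiP, stood at 1463, 2159.6 and 1746 CPM in Control and 246, 310.1 and 276 CPM in Dox, and Xbp1 (−1.03) and Ern1 (−1.72) fell. Hyou1, which works with BiP, stood at 93.7, 123 and 98.9 CPM in Control and 959.9, 851 and 991 CPM in Dox (3.15 ± 0.10). Calr (558 ± 30.4 to 2514 ± 138 CPM), Pdia6 (1.92) and Creld2 (2.18) rose. Heat shock genes were divided too, 7 higher and 8 lower of 17, with a median of 0.31, and 4 were lower with upper-quartile factors. Hspa8 (3064 ± 231 to 349.6 ± 28.5 CPM, −3.13 ± 0.08) and the mitochondrial Hspa9 (2263 ± 107 to 251 ± 16.7 CPM) fell, Cryab (144 ± 10.4 to 465 ± 14.2 CPM) rose, and Hsp90aa1 (−0.16) turned positive with upper-quartile factors (0.0687) and lost its call without Control replicate 2 or Dox replicate 1 (edgeR adjusted p up to 0.0676).

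All 15 mitochondrially encoded genes rose, with a median of 1.12. Reads from the mitochondrial genome made up 1.43%, 1.47% and 1.38% of reads in Control and 3.87%, 4.09% and 3.38% in Dox. The groups did not overlap, and the exact permutation p of 0.1 (two-sided) is the smallest that 3 against 3 libraries allow. Pseudogenes went the other way, from 4.75% ± 0.30 to 2.43% ± 0.05 of reads (exact permutation p = 0.1). The ribosomal RNAs mt-Rnr1 (429 ± 6.31 to 4358 ± 170.5 CPM) and mt-Rnr2 (131 ± 7.74 to 1912 ± 167 CPM) rose more than messages such as mt-Co1 (7445 ± 501 to 16224 ± 1899 CPM) and mt-Cytb (0.29). Mitochondrial ribosomal RNA has short tails at most, and its capture by an mRNA kit is partial. Of 16 nuclear genes that run this genome 5 rose and 8 fell, with a median of −0.28. Twnk, the helicase gene, stood at 5.76, 3.49 and 4.01 CPM in Control and 63.7, 74.7 and 62.4 CPM in Dox (3.92 ± 0.15), and Polg (1.59) and Polg2 (2.06) rose. Ssbp1, whose product binds the single strand at the same fork, stood at 25.2, 29.5 and 30.2 CPM in Control and 4.82, 3.84 and 3.33 CPM in Dox (−2.82 ± 0.15), and Tfam (−0.44) and Tfb1m (−1.90) fell. Of 26 genes of the citric acid cycle 13 rose and 10 fell, with a median of 0.21. Idh1 rose most (52.7 ± 6.3 to 163 ± 3.41 CPM) and Pdha1, which feeds the cycle, fell most (132 ± 9.79 to 24.3 ± 1.45 CPM). The coactivator gene Ppargc1a fell (44.4 ± 3.19 to 6.86 ± 1.32 CPM) and Ppargc1b rose (1.87).

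**Figure D3:**
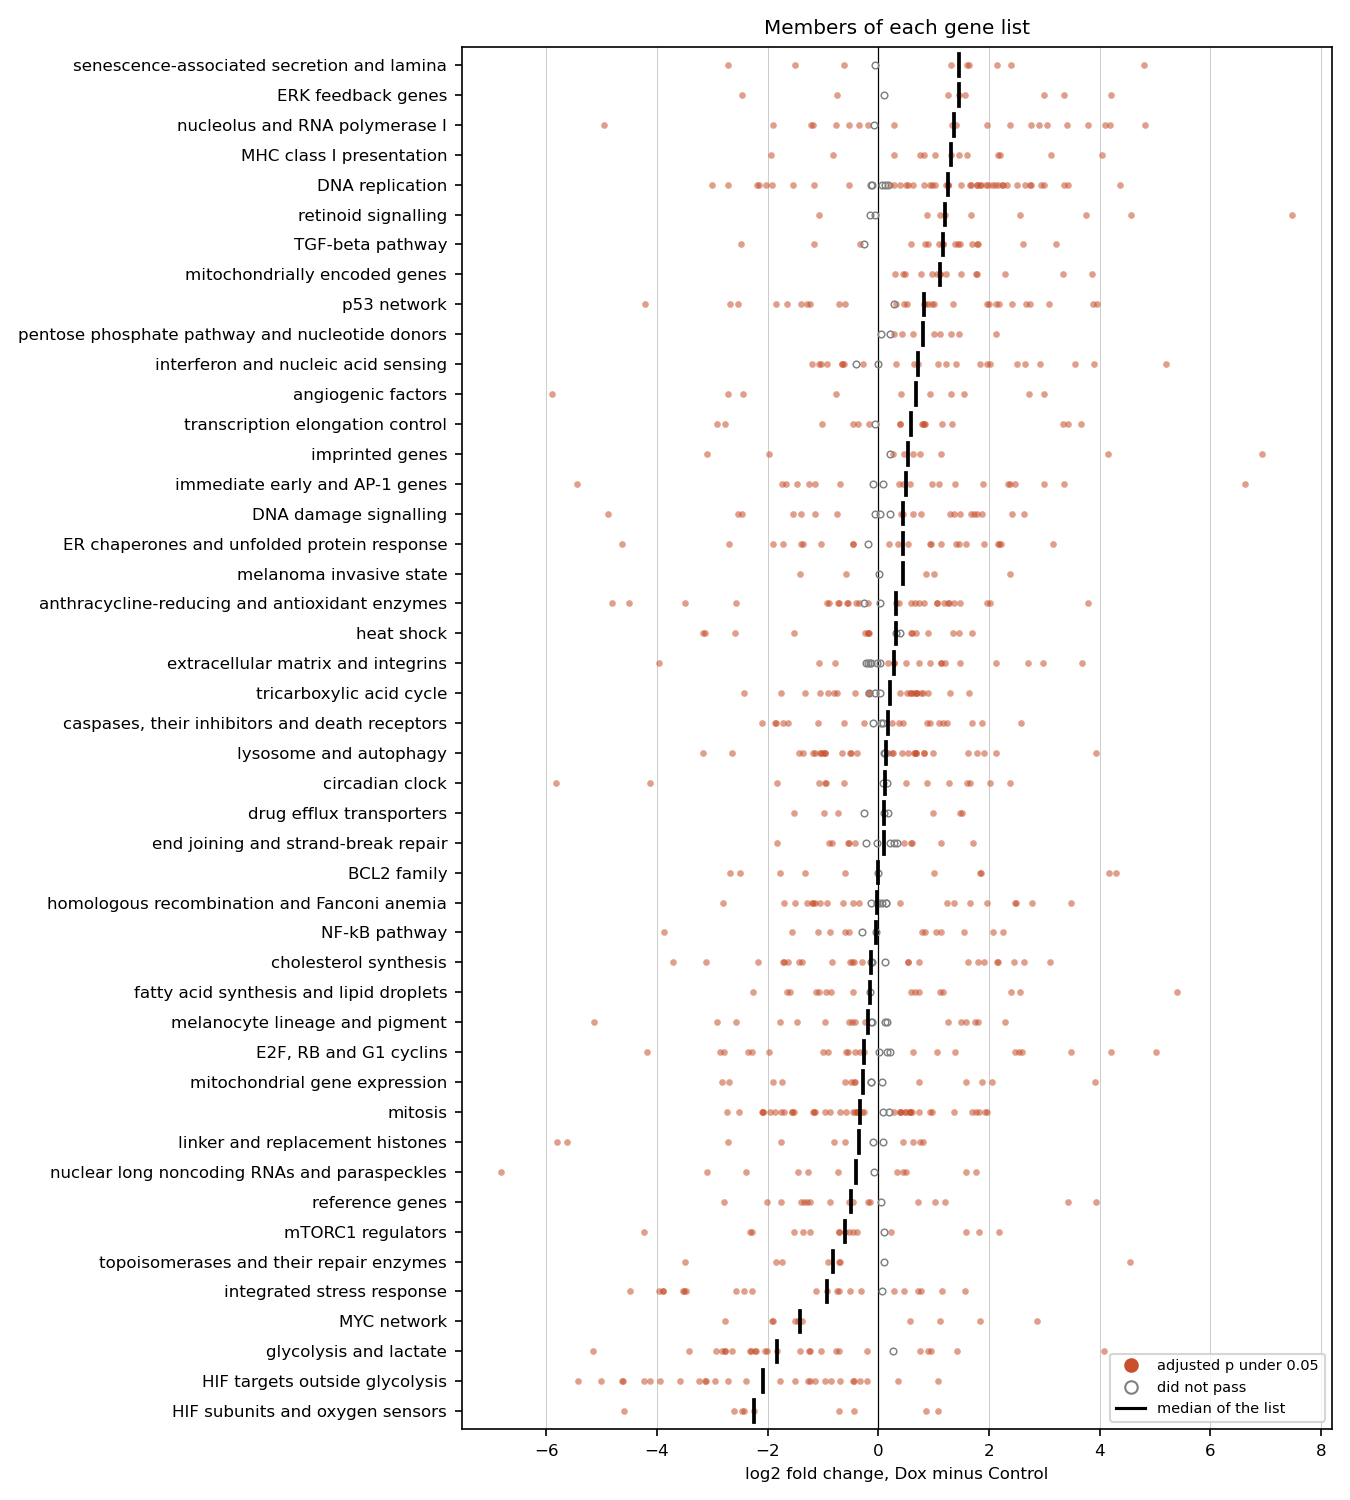
Log2 fold change (Dox minus Control) of every tested member of the 46 gene lists with at least 5 tested members, ordered by the list median (black line), filled where the edgeR adjusted p is under 0.05 and open where it is not. The HIF targets, with a median of −2.08, lie mostly left of 0, the mitochondrially encoded genes lie wholly right of it, and most lists spread to both sides.

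Immediate early genes were divided, with Egr1 among the largest increases and Jun lower. Fosb (20.3 ± 1.46 to 209 ± 37.01 CPM), Srf (22.8 ± 4.3 to 182 ± 13.9 CPM), Mafk (2.47) and Klf4 (2.34) rose, and Fos (0.44) rose slightly. Jun stood at 215, 246 and 228 CPM in Control and 62.7, 74.01 and 69.6 CPM in Dox and changed by −1.74 ± 0.08, and Jund (−1.67) and Junb (−1.25) fell too. Of 22 tested genes 13 rose and 7 fell, with a median of 0.51. Atf3 did not pass (49.4 ± 4.99 to 52.5 ± 5.69 CPM). ERK feedback genes rose in 6 of 9 cases, with a median of 1.45. Dusp6, the ERK phosphatase gene, stood at 2.56, 3.33 and 2.73 CPM in Control and 27.6, 32.01 and 28.6 CPM in Dox (3.35 ± 0.14), with Etv1 (3.00), Spry1 (1.57) and Dusp4 (1.45) also up and Phlda1 (121 ± 1.54 to 21.9 ± 0.55 CPM) down.

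TGF-beta pathway genes rose in 14 of 18 cases, with a median of 1.18. All 3 ligand genes rose, Tgfb2 with 3.61, 3.45 and 3.33 CPM in Control and 30.9, 33.02 and 32.6 CPM in Dox (3.21 ± 0.12), Tgfb3 by 1.81 and Tgfb1 by 1.79. The receptor gene Tgfbr1 rose (1.48) and Tgfbr2 did not pass. Smad3 rose (26.8 ± 1.95 to 86.7 ± 2.9 CPM) and Smad4, the shared partner of the receptor-activated SMADs, stood at 77.1, 89.5 and 87.6 CPM in Control and 15.9, 14.6 and 15.3 CPM in Dox and changed by −2.47 ± 0.09. Of their target genes, Smad7 (1.18) and Id1 (2.61) rose. In the senescence-associated list 6 of 10 tested genes rose, with a median of 1.46, among them Igfbp4 (74.5 ± 7.26 to 391 ± 23.7 CPM) and Glb1 (1.63), Hmgb2 fell (−1.50) and Lmnb1 did not pass. Il6, Cxcl1, Cxcl2, Ccl2 and Gdf15 were among the 11 members not tested. Matrix genes rose in 14 of 23 cases, with a median of 0.29, led by Thbs1 (9.69 ± 0.29 to 124 ± 12.7 CPM) and Col1a1. The integrin gene Itgb3 fell (115 ± 5.99 to 7.41 ± 1.02 CPM, −3.95 ± 0.11). The count lower in this list was 3, and 6 without Control replicate 1.

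NF-kB genes were divided, 7 higher and 6 lower of 15, with a median of −0.04 that became 0.19 with upper-quartile factors. Nfkb2 (41.3 ± 6.04 to 173 ± 19.2 CPM) and Tnfaip3 (2.25) rose, and Nfkbia, the inhibitor gene, fell (−1.55). Interferon and nucleic acid sensing genes rose in 15 of 25 cases and fell in 8, with a median of 0.72. Parp14 (0.962 ± 0.38 to 35.6 ± 4.35 CPM), Isg15 (1.29 ± 0.45 to 19.3 ± 1.38 CPM) and Trex1 (0.604 ± 0.68 to 7.16 ± 5.84 CPM) had the largest increases, and the call of Trex1 was lost without Control replicate 1 or 2 (edgeR adjusted p up to 0.128). The sensing route itself was divided: Cgas rose (1.67 ± 0.42 to 10.5 ± 0.97 CPM) and Sting1 (−1.03), Tbk1 (−1.20), Mavs (−0.63) and Ifih1 (−1.06) fell. Cxcl10 did not pass (4.98 ± 0.83 to 3.75 ± 0.3 CPM). Antigen presentation by MHC class I rose in 11 of 13 cases, with a median of 1.31. The peptide transporter gene Tap1 stood at 0.934, 0.698 and 1.08 CPM in Control and 14.5, 15.1 and 15.3 CPM in Dox (4.04 ± 0.18). B2m (455 ± 23.7 to 929 ± 62.6 CPM), H2-D1 (176 ± 4.82 to 437 ± 25.4 CPM) and H2-K1 (0.75) rose, and the nonclassical H2-T23 fell (14.8 ± 2.65 to 3.87 ± 0.31 CPM). The H2 genes are alike in sequence, so reads may be shared between them. Cd274, the gene of PD-L1, rose by 0.28, a call lost without Control replicate 1 or 3 or Dox replicate 1 or 3 (edgeR adjusted p up to 0.103).

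Of 10 MYC network genes 6 fell, with a median of −1.41. Myc rose (12.2 ± 0.83 to 18.2 ± 0.76 CPM), its partner gene Max fell (69.2 ± 1.39 to 18.3 ± 2.01 CPM, −1.92 ± 0.10), and of the antagonist genes Mxd1 rose (2.87) and Mxd4 fell (−2.76). Of 17 mTORC1 regulators 12 fell, with a median of −0.60. Tsc2 (77.5 ± 7.28 to 272 ± 14.9 CPM) and Sesn1 (2.18) rose, and Rptor (−1.36), Eif4ebp1 (359 ± 22.3 to 72.2 ± 2.33 CPM) and Sesn3 (−2.28) fell.

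Lipid genes did not move as a block. Of 27 cholesterol synthesis genes 11 rose and 13 fell. Insig1 (140.0 ± 12.3 to 16.3 ± 1.85 CPM) and Insig2 (159 ± 8.43 to 12.2 ± 1.26 CPM), whose products retain the SREBP escort in the endoplasmic reticulum, fell, and Scap, the gene of that escort, rose (45.2 ± 4.59 to 248 ± 8.22 CPM). Srebf1 rose (2.15), Srebf2 did not pass, Idi1 (2.63) and Hsd17b7 (3.11) rose and Sqle (−2.18) fell. Dgat2, which completes triglyceride synthesis, stood at 5.20, 5.59 and 5.70 CPM in Control and 220.3, 224 and 251 CPM in Dox (5.40 ± 0.09). Acly (328 ± 15.8 to 1735 ± 121 CPM) rose and Scd2 (4787 ± 418 to 993 ± 27.5 CPM) fell. The medians of these lists, −0.13 and −0.14, became positive with upper-quartile factors (0.10 and 0.09). In lysosome and autophagy genes 17 of 34 rose and 15 fell, with a median of 0.15. Gusb (18.7 ± 1.18 to 286 ± 17.4 CPM), Ctsd (1262 ± 61.9 to 3889 ± 299 CPM) and Ulk1 (2.12) rose, and Sqstm1, the autophagy receptor gene, fell (1287 ± 55.8 to 143 ± 15.5 CPM, −3.17 ± 0.08).

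The pigment program and its regulators moved apart. Pmel, which builds melanosome fibrils, stood at 3316, 3046 and 3224 CPM in Control and 10954, 10333 and 12147 CPM in Dox. Mlana (386 ± 33.8 to 1888 ± 53.6 CPM), Dct (4144 ± 186 to 11628 ± 1048 CPM) and Tyrp1 also rose, and Tyrp1, Dct and Pmel took the third, the fourth and the fifth largest share of reads in Dox. Tyr, the gene of the rate-limiting enzyme of melanin synthesis, fell (−0.54). Mitf, the master regulator gene, did not pass (28.7, 35.4 and 35.4 CPM in Control and 34.5, 39.9 and 36.6 CPM in Dox). Sox10, which maintains the lineage, stood at 185, 192 and 178 CPM in Control and 22.04, 25.9 and 25.7 CPM in Dox and changed by −2.91 ± 0.08, with Pax3 (−1.78) and Tfap2a (−2.56) also down. Mc1r, the receptor for melanocortin, stood at 156, 132 and 143 CPM in Control and 4.74, 3.73 and 3.75 CPM in Dox. Of 20 tested genes 6 rose and 10 fell, with a median of −0.19, and with upper-quartile factors 7 rose and 7 fell, with a median of 0.041. Of the invasive state markers Sox9 (3.77 ± 0.75 to 19.8 ± 2.36 CPM) and Axl (0.86) rose and Vim fell (3207 ± 187 to 1210.5 ± 29.1 CPM). Of the 15 markers 9 were not tested, and the other 6 had a median of 0.44.

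Of 16 tested clock genes 7 rose and 7 fell, with a median of 0.12. The repressor genes Bhlhe40 (464 ± 9.77 to 26.5 ± 0.91 CPM) and Bhlhe41, with 452, 504 and 522 CPM in Control and 8.80, 9.23 and 8.03 CPM in Dox, fell, and Bhlhe40 is also a HIF target. Per1 (−1.07) and Nr1d1 (−0.96) fell, Cry1 rose (12.1 ± 0.71 to 62.7 ± 2.35 CPM), Bmal1 rose slightly (0.50) and Clock did not pass. In retinoid signalling 8 of 11 tested genes rose, with a median of 1.21. Besides Cyp26b1 these included Crabp2, which carries retinoic acid to its receptor (1.23 ± 0.73 to 29.5 ± 0.93 CPM), the retinol dehydrogenase gene Rdh10 (1.29 ± 0.45 to 17.5 ± 1.56 CPM) and Rara (1.67), and Rxra fell (−1.07). Among 10 tested imprinted genes 7 rose and 2 fell, with a median of 0.54. Peg10 went from 36.7 ± 7.37 to 653 ± 38.1 CPM, and Kcnq1ot1, the noncoding RNA that silences its neighbourhood on the paternal copy, fell (14.8 ± 4.98 to 1.72 ± 0.45 CPM, −3.10 ± 0.26). Cdkn1c, a gene in that neighbourhood, fell as well (−1.97). In the list of nuclear noncoding RNAs and paraspeckle genes 5 of 12 tested rose and 6 fell, with a median of −0.40. Malat1 (382 ± 92.01 to 139 ± 10.8 CPM) and Norad (73.8 ± 12.2 to 14.1 ± 0.9 CPM) fell with Neat1, and Tug1 did not pass. Of 10 angiogenic factor genes 6 rose and 4 fell, with a median of 0.67. Angpt2 (2.38 ± 1.18 to 18.9 ± 0.65 CPM) and Pdgfa (2.72) rose and Vegfa, Nrp2 (711 ± 89.3 to 130.2 ± 6.21 CPM) and Angptl6 (100.1 ± 7.18 to 1.68 ± 0.54 CPM) fell.

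Of 18 genes used as references in quantitative PCR 12 fell and 5 rose, with a median of −0.49, beside 41.3% lower and a median of 0.04 over all genes. With upper-quartile factors 9 fell and 6 rose. Gapdh stood at 25048, 22734 and 22638 CPM in Control and 5863, 5694 and 5968 CPM in Dox, and Actb went from 1425 ± 84.01 to 424 ± 7.03 CPM. Gusb stood at 19.8, 17.5 and 18.7 CPM in Control and 275, 276 and 306 CPM in Dox, and Ppia (2850.0 ± 112 to 6599.8 ± 466 CPM) and B2m rose. Eef1a1 did not pass (19160.1 ± 1339 to 19778 ± 1768 CPM, 0.05 ± 0.08). Tbp changed by −0.53 ± 0.15 and Hprt1, listed as Hprt in older annotation, by −0.87 ± 0.07.

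Longer genes fell more often. The 11284 protein-coding nuclear genes with a RefSeq position (GRCm38.p6) were ranked by genomic span, introns included, and divided into 10 groups of equal size. In the group of shortest genes, up to 4.69 kb, 565 of 1129 genes rose and 383 fell, with a median of 0.29. In the group of longest genes, from 117.6 kb, 373 of 1129 rose and 584 fell, with a median of −0.35. Genes that fell outnumbered those that rose from group 6 on. Genes of the X chromosome had a median of −0.49, with 54.1% of 362 lower, and autosomal genes a median of 0.05, with 42.3% of 10922 lower. With the genes divided into 3 groups by span, shortest first, the X medians were −0.08, −0.46 and −0.90, and the autosomal medians 0.31, 0.08 and −0.25. Level also varied with direction: of 10 groups ordered by mean CPM, the lowest had 576 of 1129 genes higher and 255 lower, and group 9 had 441 of 1128 higher and 620 lower. These are descriptions over genes, which are not replicates, and the part of span, level or chromosome in any result was not tested. Among 670 long noncoding RNAs the median was 0.51, and among 873 pseudogenes −0.17.

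**Figure D4:**
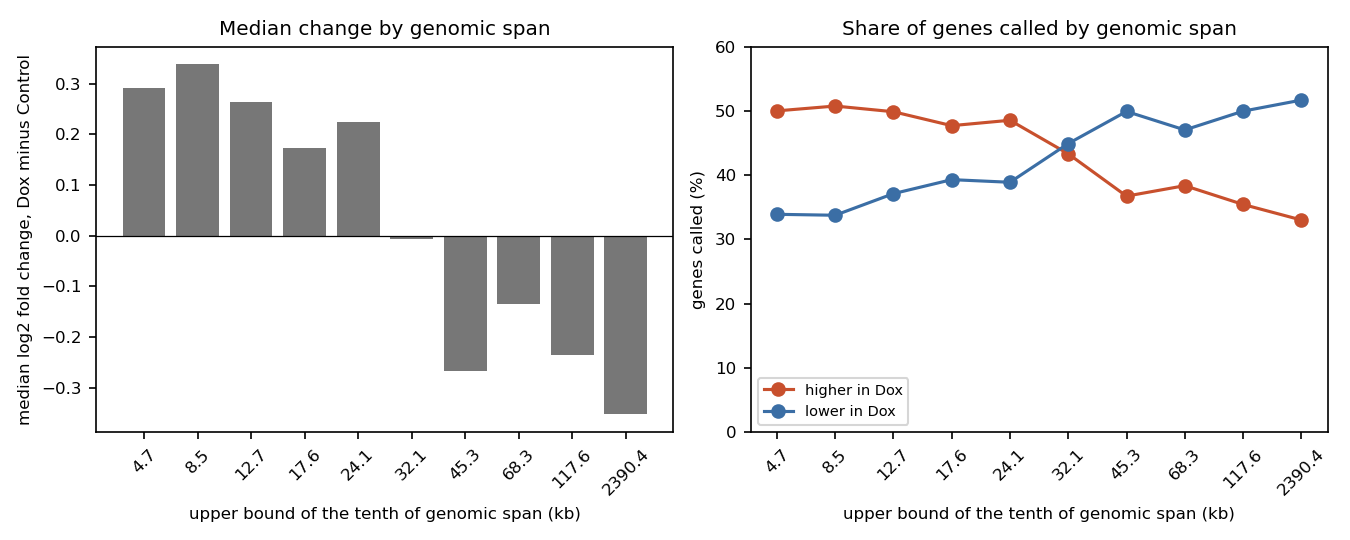
Median log2 fold change (left) and percent of genes called higher or lower in Dox (right) in 10 equal groups of the 11284 protein-coding nuclear genes ordered by genomic span, with the upper bound of each group in kb on the horizontal axis. The median falls from 0.29 in the shortest group to −0.35 in the longest, and the 2 shares cross at group 6.

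The effect of the drug was also measured after an siRNA against Hif1a, in libraries that share none with Dox and Control. There, 3 libraries of cells given 25 nM Hif1a siRNA and then doxorubicin (Hif1a_siRNA_Dox) were set against 3 given the siRNA alone (Hif1a_siRNA), in a fit of all 15 libraries over the 12721 genes listed for every group. These cells too are recorded as wild type and were kept in 1% oxygen, and the siRNA was delivered as a lipoplex 24 h before the drug. Hif1a, the target of the siRNA, was at 16.7, 15.9 and 18.9 CPM after the siRNA alone and at 13.5, 11.6 and 14.3 CPM with the drug, below all Control and Dox libraries, whose means were 201 and 123 CPM. Whether the siRNA-only cells were harvested at the same time after transfection is not stated. Of the 5537 genes that rose without siRNA in the fit of 6 libraries, 5241 were listed for every group. Of these 5241 genes 81.7% also rose after the siRNA and 6.41% fell. Of the 5400 that fell without siRNA, 5399 were listed for every group, and of these 79.7% also fell and 8.63% rose. The listing thus left out almost only genes that rose, so the 2 shares come from unlike selections. Over all genes 42.6% rose and 41.6% fell after the siRNA, so both same-direction shares were above the background. For changes of at least 2-fold the shares in the same direction were 90.1% and 88.3%. Of the 30 genes with the largest changes 23 were tested here, and all 23 moved the same way and passed. Those not tested were all among the 15 largest increases, and were not listed for every group. Tent5c changed by 6.54 ± 0.13 on the log2 scale after the siRNA and by 8.49 without it, a difference that passed. Neat1 changed by −5.81 ± 0.36 and −6.71, and that difference did not pass (edgeR adjusted p = 0.138).

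The sizes differed often. The difference between the effects passed for 3346 genes that were more positive after the siRNA (26.3%) and 4109 that were more negative (32.3%). With size factors in place of TMM the counts were 3769 and 3683, so which side is larger depends on the scaling. By the rule for named genes, the 5 largest positive differences were those of Ltbp1, Proser2, Selenbp2, Selenbp1 and Tph1. Ltbp1, which tethers latent TGF-beta to the matrix, fell without the siRNA (log2 fold change −1.05) and rose after it (5.74 ± 0.38). After the siRNA it was at 0.0622, 0.0907 and 0.0601 CPM in the libraries without drug and at 6.05, 2.92 and 3.14 CPM in those with it. The libraries without drug held 2, 3 and 2 of its reads, so the ratio of 49.6 per read sequenced has a 95% exact interval of 23.8 to 124 from counting error alone. Selenbp1, a selenium-binding protein gene that is also among the HIF targets, fell by 4.51 on the log2 scale without the siRNA and rose by 0.49 after it. Its copy Selenbp2 is close in sequence, so their reads may be shared. Proser2 went from a fall of −2.31 to a rise of 3.86. It too was low, at 0.187, 0.242 and 0.120 CPM after the siRNA alone and at 2.85, 2.86 and 2.40 CPM with the drug. Tph1, which encodes tryptophan hydroxylase, fell without the siRNA (−4.12) and did not pass after it (0.84, below 1 CPM in every library of both groups).

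The 5 largest negative differences were those of Cmtr2, Cxcl10, Pprc1, Pigw and Gemin4. Cmtr2, a cap methyltransferase gene, rose without the siRNA (3.90) and did not pass after it (0.23 ± 0.14). Cxcl10, an interferon-induced chemokine gene, was at 87.1, 90.1 and 86.3 CPM after the siRNA alone and at 5.94, 6.69 and 5.54 CPM with the drug added, a change of −3.85 ± 0.12. Without the siRNA its change was −0.30 in the fit of 15 libraries (edgeR adjusted p = 0.0476) and did not pass in the fit of 6. Pprc1, a relative of the mitochondrial coactivators, rose without the siRNA (2.34) and fell after it (−1.04 ± 0.09). Pigw rose and then fell (2.52 and −0.73), and Gemin4, which serves the assembly of spliceosomal particles, rose in both, by 5.09 and by 1.89 ± 0.14.

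**Figure D5:**
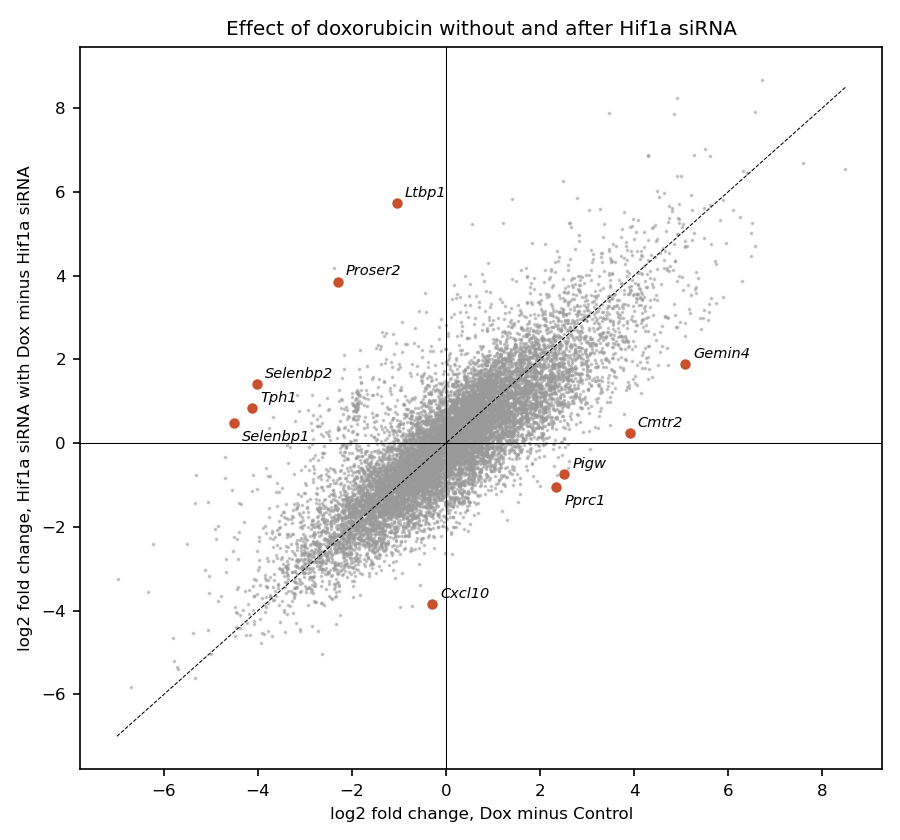
Log2 fold change with doxorubicin without siRNA (horizontal) and after Hif1a siRNA (vertical) for each of the 12721 genes, with the 10 named differences in orange and the line of equal change dashed. Most genes lie in the quadrants of equal sign, and Ltbp1, Proser2, Selenbp1, Selenbp2, Tph1, Pprc1 and Pigw lie in those of opposite sign.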

How the data were processed

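RNA-seq libraries of B16.F10 cells were made with the TruSeq Stranded mRNA kit from RNeasy-extracted RNA, per the labels' protocols. The authors deposited 1 file of raw read counts per gene for each library, listing genes above a low-count minimum. StringTie 2.1.3b, HISAT2 2.1.0, Bowtie2 2.3.4.1, Trimmomatic 0.38, FastQC 0.11.7 and the build mm10 are named in the submitters' processing notes, with no role given; the strand setting of the counting is not given in the sources used here, so reads of overlapping antisense genes may not be separated. Genes were joined by gene ID. Symbols came from the files, and from RefSeq for 1443 genes; 29 had none. Spans, positions and promoters came from RefSeq on GRCm38.p6, the assembly that mm10 names.

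Dox was compared with Control in edgeR 4.0.16 (R 4.3.3; quasi-likelihood F-test, robust, TMM scaling, 6 libraries, 4 residual degrees of freedom, no replicate block, two-sided). Adjusted p-values are Benjamini-Hochberg over 13080 genes, with a threshold of 0.05; filterByExpr removed 0 genes. The difference from the drug effect after Hif1a siRNA was an interaction term in a fit of all 15 libraries over 12721 genes (10 residual degrees of freedom). The SE is the absolute log2 fold change divided by the square root of F. No 2 libraries of a group were alike within sampling noise (chi-square per degree of freedom 5.10 to 16.4). The fit of 6 libraries was tested on simulated data, and the fit of 15 libraries was not. Tables and figures used Python 3.11.15, pandas 2.3.3, scipy 1.17.1 and matplotlib 3.10.9.

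The comparison and the 47 gene lists were chosen with earlier results of these data known. Named genes were the 15 largest changes in each direction with adjusted p under 0.05, no overlap between groups and a mean of 5 CPM or more where the gene was higher, leaving out clone and prediction names; the anchors of each list, its 4 called members of smallest adjusted p and up to 4 exceptions; the 10 genes with the most reads in each group; and the 5 largest differences in each direction between the drug effects. Other list members named in the text were chosen after their values were seen. Not all genes picked by the rule are reported here, and all tested members enter the counts and medians of their lists. Alternatives were other scalings (size factors, upper quartile), DESeq2 1.42.0, limma-voom (limma 3.58.1), a test against a 1.5-fold change, an adjusted p threshold of 0.01, a filter of 1 CPM in 3 libraries or none, a replicate block, all groups in the fit, protein-coding nuclear genes only, and leaving out each library.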

Additional observations from a re-analysis of the deposited data

Results flagged for a closer look

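For 30 named genes the effect of doxorubicin after Hif1a siRNA differed from that without siRNA by the interaction test of the 15-library edgeR fit. They are the 10 genes named for their difference and 20 of the 23 genes tested among the largest changes. The values below are the difference in log2 fold change, after siRNA minus without. No explanation was tested, and the libraries differ in transfection as well as in the target of the siRNA.

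The 10 genes named for their difference were chosen by it, so their values describe the choice. Ltbp1 differed by 6.79, Proser2 by 6.16, Selenbp2 by 5.43, Selenbp1 by 5.01 and Tph1 by 4.96, the last below 1 CPM in every library of both siRNA groups. Cmtr2 differed by −3.67, Cxcl10 by −3.55, Pprc1 by −3.38, Pigw by −3.25 and Gemin4 by −3.21.

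Among the genes with the largest increases, Tent5c differed by −1.95, Hbegf by −2.01, Gpr155 by −1.87, Tmem79 by −1.24 and Cyp26b1 by −0.91, so that their increases were smaller after the siRNA. Egr1 differed by 1.95 and Oplah by 1.34, so that theirs were larger.

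Among the genes with the largest decreases every difference that passed was positive, that is, the decrease was smaller after the siRNA. These genes, like those with the largest increases, were chosen by their change without siRNA. That change is subtracted in the difference, so the choice itself favours smaller changes after the siRNA. Whether the siRNA alone had already lowered these genes was not tested. The HIF targets Ankrd37 and Car9 differed by 4.55 and 2.60, and the glycolytic gene Eno2 by 1.88. Ier3 differed by 3.91, Pkp2 by 3.82, H1f2 by 3.11, Kif21b by 2.09, Mc1r by 1.46 and Angptl6 by 1.15. Smaller differences were those of Mipol1 at 0.855, Pcm1 at 0.59, Bhlhe41 at 0.36 and H1f0 at 0.32. All 23 genes still moved in the same direction in both comparisons and passed in both.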

How the results depend on the processing

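The counts of genes higher and lower, also at 2-fold, stayed within 1.5 times the reported counts under every alternative run. Upper-quartile factors gave 6323 higher and 4686 lower, so the share of calls that were higher went from 50.6% to 57.4%. The test against a 1.5-fold change gave 4043 and 4009, and limma-voom 5545 and 5403. Leaving out 1 library gave 5349 to 5512 higher and 5233 to 5380 lower. For the difference between drug effects it gave 3033 to 3362 more positive and 3945 to 4263 more negative. DESeq2 gave 3789 more positive and 3714 more negative for that difference, and size factors 3769 and 3683. The larger side of that difference therefore depends on the scaling. The replicate block gave 5472 higher and 5343 lower, and 3290 and 4083 for the difference. The replicate numbers are not said to mark pairs. Deviations of same-numbered Dox and Control libraries correlated at −0.02, 0.01 and −0.15. With 3 libraries in each group these values cannot show whether the libraries were paired. Of 791 called list members and named genes 193 lost their call in the test against a 1.5-fold change, which small changes fail by construction. Every other alternative took away fewer, such as 6 with DESeq2, 2 with limma-voom and 38 at the threshold of 0.01. Over all alternatives, 597 of the 791 always kept their call and 183 lost it under at least 1. Another 11 turned positive with upper-quartile factors and did not pass there: Dnaja1 0.0333, Hsp90ab1 0.043, Hsp90aa1 0.0687, Ndrg1 0.0238, Pkm 0.0235, Polr1d 0.0489, Supt6 0.0684, Rpl13a 0.0436, Prdx5 0.0436, Sdhc 0.0396 and Sdha 0.0734. Itga5, which did not pass, turned positive there at 0.205, and Atrip, which did not pass either, ranged from −1.32 without Dox replicate 3 to 0.703 without Dox replicate 1. The construction of that scaling, a shift common to all genes, accounts for its part. Changes under 0.23 on the log2 scale, genes with a few reads in 1 group, and the size of any change in total RNA are what these libraries cannot settle.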
